A study of Homo sapiens with 30 samples.

Results

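The cytosolic ribosomal protein genes were described in 3 established human neuroblastoma cell lines (IMR32, SK-N-BE(2)c and NGP) whose RNA had been sequenced after transfection with antisense oligonucleotides (ASOs). Members were the protein-coding genes whose symbols follow the standard names of the large (RPL) and small (RPS) subunit proteins, together with RPLP0, RPLP1, RPLP2 and RPSA, that were listed in the table of every line. This rule found 77 genes, 46 of the large and 31 of the small subunit, out of 62710 genes listed for IMR32 and 57905 for each other line. With a mean value of at least 10 in the line, 77 members were tested in IMR32 and 76 in each other line.

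All cells had received an ASO at 100 nM with Lipofectamine 2000, the control cells included. ASO1, ASO2 and ASO10 target NESPR, a long non-coding RNA, and NCA was the negative control ASO. IMR32 had 4 libraries each of ASO1, ASO2 and NCA, and NGP and SK-N-BE(2)c had 3 libraries each of ASO2, ASO10 and NCA. No untransfected cells were part of the 30 libraries, each line is a single established culture, and the time between transfection and harvest is not given in the sources used here. The level of NESPR was not analysed here.

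The cytosolic ribosome is built from ribosomal RNAs and one protein from each of these genes, and in growing cells their mRNAs are among the most abundant. Most of these mRNAs begin with a C followed by an unbroken stretch of pyrimidines, the terminal oligopyrimidine (TOP) motif, through which mTORC1 signalling and the RNA-binding protein LARP1 control their translation and stability. Several free ribosomal proteins, RPL5 and RPL11 among them, bind the ubiquitin ligase MDM2 when ribosome assembly is disturbed, which stabilizes p53.

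Start sequences are shown for 8 members that the results turn on, because the shared TOP start is the feature that a reader would look for in genes that move together. Each is 30 bases long on the gene's own strand, written 5′ to 3′, with 10 bases before the annotated start and 20 from it. Capitals mark the TOP run, defined as a C at the start followed by at least 4 more pyrimidines, and an entry with no capitals has no such run at that start. RPS19 is shown at 1 of its 2 listed starts. Sequences and coordinates are from RefSeq on GRCh38.p14.
RPL24, chr3:101686699-101686728, minus strand: atgattctctCTTTCTTTTCgccatctttt
RPL39, chrX:119791611-119791640, minus strand: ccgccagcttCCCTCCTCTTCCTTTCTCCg
RPS19, chr19:41860245-41860274, plus strand: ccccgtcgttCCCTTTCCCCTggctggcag
RPL12, chr9:127451387-127451416, minus strand: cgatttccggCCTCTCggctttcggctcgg
RPS24, chr10:78033853-78033882, plus strand: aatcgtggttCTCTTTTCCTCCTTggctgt
RPL9, chr4:39458903-39458932, minus strand: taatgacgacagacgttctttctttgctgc
RPS26, chr12:56041908-56041937, plus strand: acataacctcgattttcttccgccatccgg
RPS28, chr19:8321486-8321515, plus strand: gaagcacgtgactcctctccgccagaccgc

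Of the 62 members with an entry in the promoter table, 46 (74.2%) had a TOP run at 1 of their listed starts, against 5.14% of the 27305 genes in that table. The runs were 5 to 19 bases long, with a median of 8, and the longest was that of RPL39. A run that begins some bases before or after a listed start was not counted.

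Values are the authors' normalized counts, that is gene counts divided by 1 size factor per library, and a difference is given as a log2 fold change of log2(value + 1), which understates changes of low genes. A gene was called higher or lower where limma, fitted over all genes with a mean of at least 10 in that line, gave an adjusted p (Benjamini-Hochberg) under 0.05. Recovered reads per library ran from 9393587 to 13932379 for IMR32, 11497829 to 15060356 for SK-N-BE(2)c, and 11591178 to 13795561 for NGP. All 10 markers of sympathoadrenal neuroblastoma cells had a mean of at least 10 in each line. Their summed level was 33109 to 34849 with NCA, 30752 to 33692 with ASO1 and 30099 to 32613 with ASO2 in IMR32. It was 61129 to 67094 with NCA, 59496 to 60983 with ASO2 and 55013 to 57072 with ASO10 in SK-N-BE(2)c, and 51727 to 52644, 44184 to 45704 and 44177 to 45921 in NGP. With ASO2, 0 were called higher and 5 lower in IMR32, 3 and 6 in SK-N-BE(2)c, and 2 and 7 in NGP. With ASO1 it was 1 and 5, and with ASO10 0 and 7 in SK-N-BE(2)c and 1 and 7 in NGP. Of all genes, 17.6% were called higher and 14.8% lower with ASO2 in IMR32. Those shares were 33.6% and 33.4% in SK-N-BE(2)c and 30.6% and 28.1% in NGP. For ASO1 they were 13.6% and 14.4%, and for ASO10 27.8% and 31.1% in SK-N-BE(2)c and 26.8% and 27.6% in NGP. Of 13 markers of fibroblasts, epithelial, immune and red blood cells, 4 reached a mean of at least 10 in IMR32, 6 in SK-N-BE(2)c and 7 in NGP. The fibroblast marker COL1A1 was at 630 to 962 in IMR32, 2.58 to 25.2 in SK-N-BE(2)c and 118 to 268 in NGP. PDGFRB was at 239 to 402 in IMR32, 577 to 809 in SK-N-BE(2)c and 142 to 191 in NGP. LUM and DCN reached 289 and 359 in SK-N-BE(2)c, while COL1A2 was at most 4.43 in any library. The leukocyte marker PTPRC was at most 4.72 in any library. The monocyte marker CD14 was at 0.913 to 10.4 in IMR32, 27.2 to 56.2 in SK-N-BE(2)c and 6.15 to 28.9 in NGP. The summed level of these 13 markers was 1058 to 1156 with NCA, 942 to 1108 with ASO1 and 1231 to 1343 with ASO2 in IMR32. In NGP it was 475 to 492 with NCA, 719 to 765 with ASO2 and 453 to 567 with ASO10. In SK-N-BE(2)c it was 1167 to 1221 with NCA, 1317 to 1380 with ASO2 and 957 to 1144 with ASO10, and the part of either marker list in the results was not tested. The labels do not say whether replicates were separate cultures, so p-values measure the spread between these libraries, which may be technical.

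In IMR32, replicate 1 of each group stood apart with the highest share of values in ribosomal protein genes, and the counts, medians and shares of IMR32 are given with and without these 3 libraries. Control replicates of NGP and SK-N-BE(2)c carry different spellings in the tables (NCA for replicate 1 and NCA2 for replicates 2 and 3), and the titles place them in the same group.

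The share of all values taken by the 77 genes was higher with ASO2 than with NCA in all 3 lines on average, and the groups did not overlap in IMR32 or SK-N-BE(2)c. In IMR32 the share was 2.29%, 2.10%, 2.10% and 2.05% in the NCA libraries, 2.44%, 2.13%, 2.20% and 2.16% with ASO1, and 2.54%, 2.42%, 2.31% and 2.37% with ASO2. Every ASO2 library lay above every NCA library, while the ASO1 libraries overlapped both groups. As means these are 2.13% ± 0.11 (SD, n = 4) for NCA, 2.23% ± 0.14 (SD, n = 4) for ASO1 and 2.41% ± 0.10 (SD, n = 4) for ASO2.

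In NGP the share was 3.44%, 3.55% and 3.21% with NCA, 3.63%, 3.45% and 3.73% with ASO2, and 3.78%, 3.82% and 3.84% with ASO10. The ASO10 libraries lay wholly above NCA, and those of ASO2 overlapped NCA through ASO2 replicate 2 and NCA replicate 2. In SK-N-BE(2)c the share was 3.56%, 3.73% and 3.84% with NCA, 4.36%, 4.36% and 4.37% with ASO2, and 4.10%, 4.49% and 4.35% with ASO10. Both ASO groups lay above every control library, with means of 4.37% ± 0.0045 (SD, n = 3) for ASO2, 4.31% ± 0.20 (SD, n = 3) for ASO10 and 3.71% ± 0.14 (SD, n = 3) for NCA. Fewer cells of a kind and less RNA per cell cannot be told apart in these bulk libraries, and the share does not depend on the size factors.

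**Figure D1:**
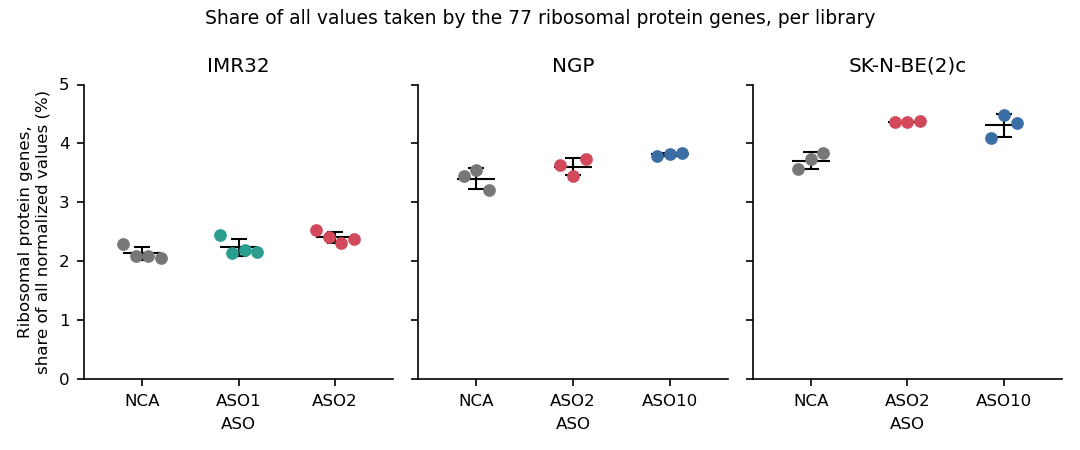
Share of all normalized values taken by the 77 ribosomal protein genes (percent, vertical axis) in each of the 30 libraries, by ASO and line; points are libraries and bars the group mean ± SD. In SK-N-BE(2)c all 6 libraries of ASO2 and ASO10 lie above the 3 control libraries, and in IMR32 replicate 1 is the highest point of each group.

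Per kilobase of the median GENCODE 29 transcript length, members spanned a wide range of levels. In IMR32 the highest mean level was that of RPL38 (15837 normalized counts per kilobase) and the lowest that of RPL17 (127), with a median over members of 4167. RPS10, a small subunit protein, had the lowest level among the members tested in SK-N-BE(2)c (62.6) as in NGP (57.3). RPS10 and RPL17 share 39.4% and 32.7% of their exon bases with a read-through gene on the same strand (RPS10-NUDT3 and RPL17-C18orf32), and whether reads common to both were dropped in counting is not given in the sources used here. IMR32 was scaled on its own and the other lines together, so levels were not compared between IMR32 and the others.

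In IMR32, ASO2 was accompanied by higher ribosomal protein mRNA across both subunits. Called higher were 52 of 77 members and called lower 0, against 17.6% and 14.8% of all 17309 genes tested. The median log2 fold change was 0.21, against -0.00 over all genes, and members ranged from -0.00 to 0.36. The large subunit contributed 32 of 46 genes and the small subunit 20 of 31. All 4 ASO2 libraries lay above all 4 NCA libraries for 43 members, a share of 16.3% over all genes. Without replicate 1 of each group, a choice made after seeing the data, 65 were called higher and 0 lower, against 20.5% and 17.7% of all genes, with a median of 0.22. The share of values in members was then 0.28 percentage points above NCA, against 0.27 with all libraries.

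RPS13, a small subunit protein whose introns carry small nucleolar RNAs, showed the largest rise with ASO2 in IMR32 among all members. Its normalized counts were 1544, 1415, 1339 and 1343 with NCA and 1966, 1796, 1692 and 1801 with ASO2. The groups did not overlap, and the log2 fold change was 0.36 ± 0.06 (SE, n = 4; limma adjusted p = 0.00013; two-sided exact permutation p = 0.0286, the smallest that 4 against 4 allows). RPS12, another small subunit protein, rose by a log2 fold change of 0.33 (limma adjusted p = 0.00054) and did not overlap its controls either.

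The count of calls with ASO1 in IMR32 moved with the processing. Called higher were 5 (RPL6, RPL24, RPS9, RPS13 and RPS29) and lower 1 (RPS7), against 13.6% and 14.4% of all genes. The median was 0.06 and members ranged from -0.22 to 0.31. The call of RPS13 was lost without ASO1 replicate 1 or NCA replicate 3 or 4, and that of RPS9 without NCA replicate 3 or with no filter. Rescaling every library to the same total gave 14 higher and 2 lower, against 16.1% and 13.1% of all genes. With a block for the replicate number, the share of members called higher lay above the 18.8% of all genes. In the main fit it lay below the 13.6%. Without replicate 1 of each group 16 were called higher and 4 lower, against 15.8% and 17.3%, with a median of 0.05. The share of values in members was 0.10 percentage points above NCA with all libraries and 0.08 without those 3. Leaving out only ASO1 replicate 1 gave 4 higher, 4 lower and a median of 0.00, and leaving out only NCA replicate 1 gave 13 higher and 0 lower. Without NCA replicate 3 the count of higher calls was 2 and without NCA replicate 4 it was 3.

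RPS29, a small protein of the small subunit, had the clearest rise with ASO1, from 598, 576, 585 and 585 in NCA to 701, 721, 678 and 639 in ASO1. Those groups did not overlap, and the log2 fold change was 0.22 ± 0.05 (SE, n = 4; limma adjusted p = 0.0034). RPS7, which can bind MDM2, was at 1898, 1769, 1735 and 1700 with NCA, at 1756, 1479, 1516 and 1536 with ASO1, and at 2026, 2050, 1904 and 1866 with ASO2. Its ASO1 group was lower than NCA by limma (-0.18 ± 0.06, SE; adjusted p = 0.021) although ASO1 replicate 1 overlapped the controls, and this call was lost when ASO1 replicate 2, 3 or 4 or NCA replicate 1 was left out. All ASO1 libraries lay below all ASO2 libraries (-0.32, limma adjusted p = 0.0003).

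Set directly against each other in IMR32, ASO1 had lower values than ASO2 for 30 members and higher values for 0, against 12.8% and 9.17% of all genes. The median was -0.16. This count rested on single libraries: it was 53 without ASO1 replicate 1, 57 without replicate 1 of every group (16.9% of all genes, median -0.18, share difference -0.20 percentage points), 13, 14 and 17 without ASO1 replicates 2, 3 and 4, and 17 without ASO2 replicate 2. RPS6, the substrate of the S6 kinases, differed between the ASOs (-0.31, limma adjusted p = 0.0044) while neither ASO was called against NCA.

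In NGP, both ASOs were accompanied by higher levels of most members. With ASO2, 49 of 76 were called higher and 3 lower, against 30.6% and 28.1% of the 14440 genes tested, with a median of 0.19 and a range from -0.33 to 0.75. With ASO10, 52 were called higher and 1 lower, against 26.8% and 27.6%, with a median of 0.17 and a range from -0.34 to 0.74. Libraries did not overlap with NCA for 47 higher and 4 lower members with ASO2 (32.4% and 30.0% of all genes) and for 53 higher and 3 lower members with ASO10 (28.6% and 30.5%). Both contrasts use the same 3 NCA libraries.

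RPL39, a small protein that lines the exit tunnel of the large subunit, rose most with ASO2 in NGP. Its normalized counts were 376, 305 and 398 with NCA, 654, 545 and 617 with ASO2, and 630, 534 and 595 with ASO10. Both ASO groups lay well above the controls, by log2 fold changes of 0.75 ± 0.10 (SE, n = 3; limma adjusted p = 3.2e-07) and 0.71 ± 0.10 (SE, n = 3; limma adjusted p = 9.8e-07). RPL35A, a large subunit protein, rose by 0.48 and 0.41 (limma adjusted p = 4.1e-09 and 7.1e-08). RPL41, the shortest of these proteins, stood at 545, 483 and 532 with NCA and at 839, 721 and 716 with ASO2, a rise of 0.54 (limma adjusted p = 2.1e-06), and with ASO10 at 591, 580 and 570, which was not called (0.16, limma adjusted p = 0.091).

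RPS28, a small subunit protein near the mRNA exit, was the member that rose most with ASO10 in NGP. It was at 843, 971 and 761 with NCA, 1057, 1035 and 1198 with ASO2, and 1509, 1453 and 1313 with ASO10. The 3 groups did not overlap and rose in that order, with log2 fold changes of 0.36 for ASO2 and 0.74 ± 0.08 (SE, n = 3; limma adjusted p = 2.7e-08) for ASO10, and -0.38 for ASO2 against ASO10 (limma adjusted p = 0.00026). The 5 named pseudogenes of RPS28 together held 202%, 153% and 129% of its level in NCA, ASO2 and ASO10, so reads of RPS28 could be split among near-identical copies and its values are uncertain. RPS19, the protein most often altered in Diamond-Blackfan anaemia, rose from 15623, 15316 and 14237 with NCA to 20148, 20208 and 19679 with ASO10 (0.41, limma adjusted p = 3.2e-08), again without overlap.

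**Figure D2:**
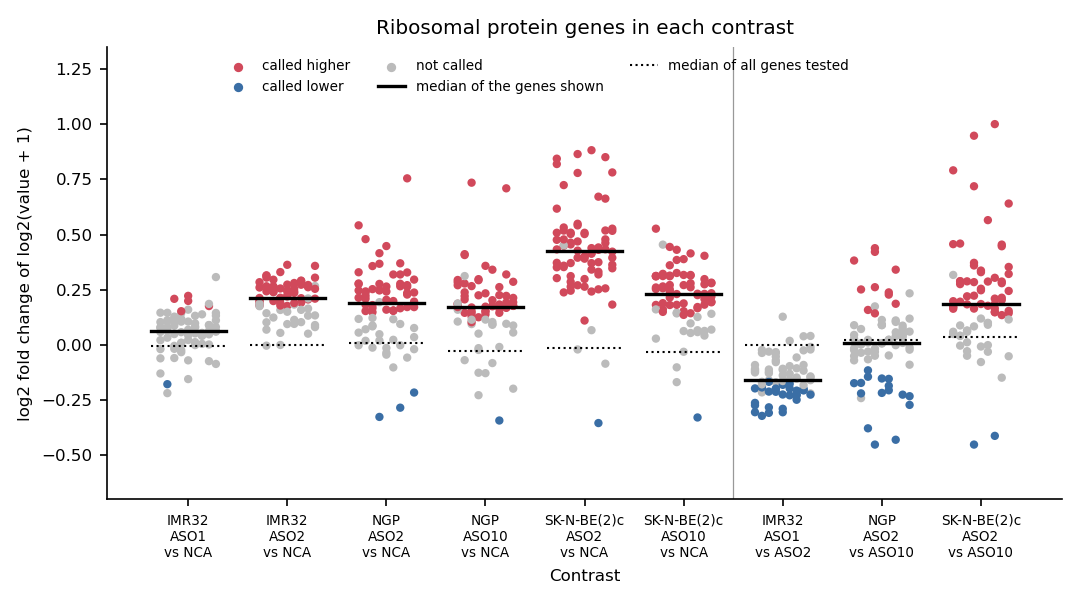
Log2 fold change of log2(value + 1) of each ribosomal protein gene (vertical axis) in the 6 contrasts against NCA and the 3 contrasts between ASOs; each point is a gene, red called higher, blue called lower, grey not called, with solid bars for the median of the genes shown and dotted lines for the median of all genes tested. The bar lies highest for ASO2 in SK-N-BE(2)c (0.42) and lowest for ASO1 against ASO2 in IMR32 (-0.16).

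SK-N-BE(2)c showed the largest rise. With ASO2, 71 of 76 members were called higher and 1 lower, against 33.6% and 33.4% of the 13556 genes tested, with a median log2 fold change of 0.42 and a range from -0.35 to 0.88. The count took in 45 of 46 large subunit and 26 of 30 small subunit genes, with medians of 0.43 and 0.41. Libraries did not overlap for the same numbers, 71 above and 1 below, against 34.4% and 34.8% of all genes. Members not called were RPL12, RPS10, RPS23 and RPS25, and the member called lower was RPS24.

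RPS3A, a small subunit protein, showed the largest rise, from 314, 333 and 375 with NCA to 600, 592 and 693 with ASO2 and 412, 443 and 416 with ASO10. All ASO2 libraries lay above all ASO10 libraries and these above all NCA libraries, at 0.88 ± 0.09 (SE, n = 3; limma adjusted p = 8.2e-10) for ASO2 and 0.32 for ASO10. RPL39 rose by 0.85 with ASO2 and by 0.40 with ASO10, from 415, 482 and 597 with NCA to 828, 895 and 949 with ASO2 and 706, 596 and 658 with ASO10. RPL21, a large subunit protein, rose by 0.86 with ASO2 (limma adjusted p = 3.1e-08) from 170, 189 and 209 to 361, 333 and 338, and its 133 named pseudogenes summed to 54.6% of its level with NCA, so its values are uncertain too.

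Dividing members at the median of their mean value gave an even picture for the more abundant genes. Of the upper 38 in SK-N-BE(2)c all 38 were called higher with ASO2, between 0.11 and 0.55, with an SD over genes of 0.10. The lower 38 held 33 higher and 1 lower call, ranged from -0.35 to 0.88 and had an SD of 0.27. The large single-gene values above were thus those of members with lower counts, and the rise of the abundant members was narrower.

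With ASO10 in SK-N-BE(2)c, 57 members were called higher and 1 lower, against 27.8% and 31.1% of all genes, with a median of 0.23 and a range from -0.33 to 0.53. Libraries lay wholly above NCA for 49 members and wholly below for 1 (30.4% and 34.3% of all genes). RPS27, a zinc-binding protein of the small subunit, rose most, from 121, 110 and 98.3 with NCA to 125, 179 and 177 with ASO10 (0.53 ± 0.14, SE, n = 3; limma adjusted p = 0.0024) and to 179, 192 and 223 with ASO2 (0.84). RPS9 rose with both ASOs, from 4980, 4922 and 5048 with NCA to 7015, 7013 and 7244 with ASO2 and 6420, 7204 and 6736 with ASO10, by 0.51 and 0.44 (limma adjusted p = 5.7e-10 and 1.3e-08). None of these ASO libraries overlapped its controls. With 3 libraries a group no exact permutation test can go below 0.1, so single members rest on limma's pooled spread.

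Rescaling every library to the same total moved the median of all genes with ASO2 in SK-N-BE(2)c from -0.02 to -0.15, a shift of -0.14, and the median of the members from 0.42 to 0.29. Calls were then 65 higher and 3 lower. The shares of all genes given above are for the values as deposited and cannot be set beside these counts. In the other contrasts against NCA that rescaling shifted the median of all genes by between -0.07 and 0.02.

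**Figure D3:**
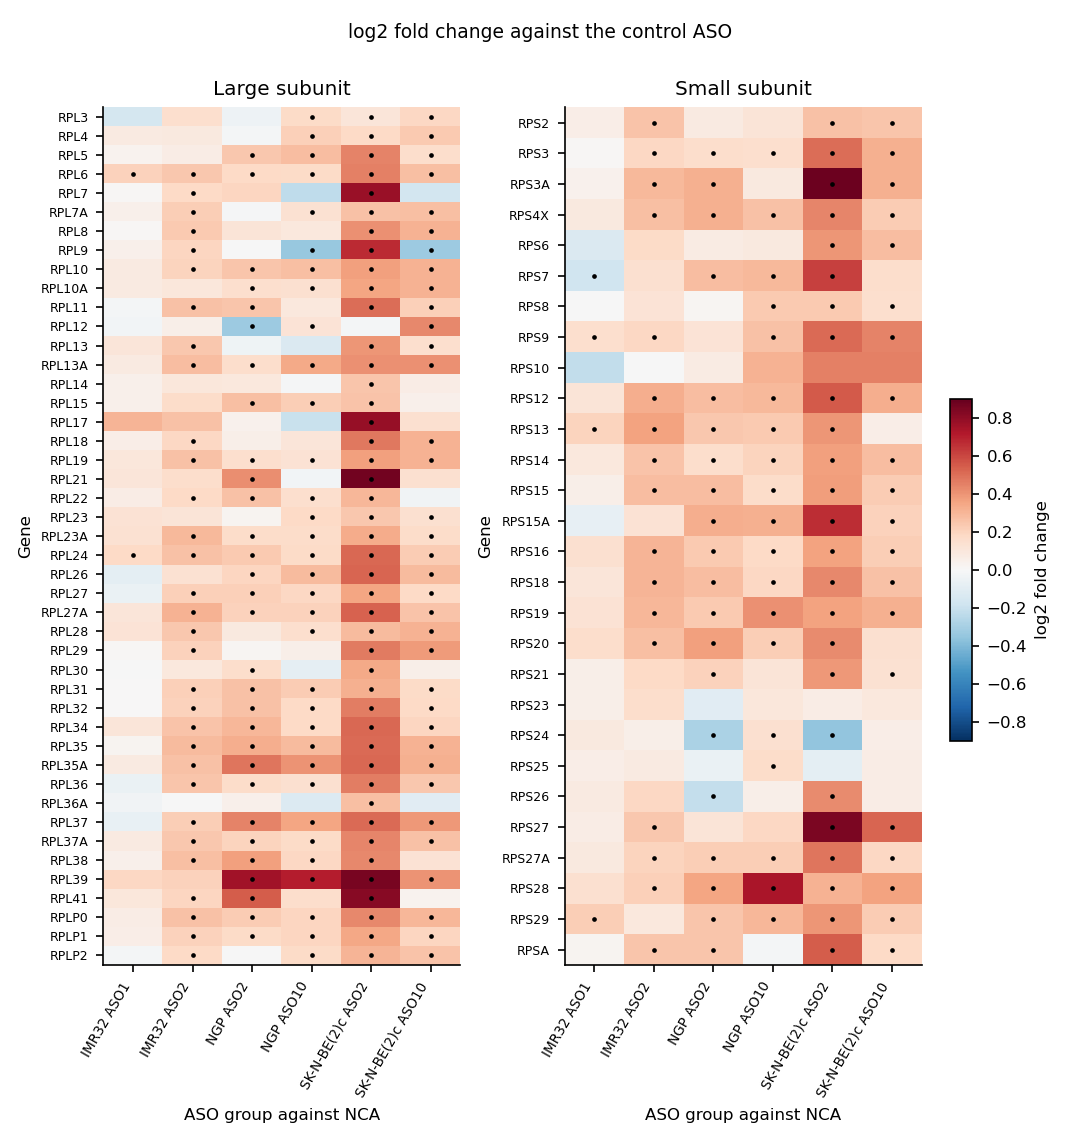
Log2 fold change against NCA (colour, red higher and blue lower) of the large subunit genes (left) and small subunit genes (right) reported by name, in the 6 ASO groups; black dots mark genes called by limma. Most rows are red with a dot in the SK-N-BE(2)c ASO2 column, and the blue dotted cells are RPL12, RPS24 and RPS26 with ASO2, RPL9 with ASO10 and RPS7 with ASO1.

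The rise with ASO2 recurred in all 3 lines. Called higher in every line were 38 of 76 members (50.0%), against 15.0% of the 11594 genes tested in all lines, and 0 were called lower in each (10.2% of genes). In SK-N-BE(2)c as well as NGP, ASO2 was called higher for 49 members (25.4% of 12637 genes) and lower for RPS24 alone (24.0%). ASO10 was called higher in both of these lines for 44 members (19.1%) and lower for RPL9 alone (20.5%). RPL6 and RPL24 were called higher in all 6 contrasts against NCA, as were 354 of the 11594 genes, or 3.05% against 2.63% of the members. That share of members is near the background.

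RPL24, a large subunit protein at the bridge between subunits, was at 2790, 2371, 2448 and 2354 with NCA, 3123, 2693, 2683 and 2753 with ASO1, and 3380, 2911, 2865 and 2834 with ASO2 in IMR32. In NGP it stood at 3095, 3148 and 3062 with NCA, 3731, 3470 and 3760 with ASO2, and 3514, 3278 and 3686 with ASO10. Its SK-N-BE(2)c libraries stood at 3567, 3902 and 4348 with NCA, 5308, 5694 and 5886 with ASO2, and 4337, 4870 and 4634 with ASO10. Only ASO1 in IMR32 and ASO10 in SK-N-BE(2)c overlapped NCA. Log2 fold changes in that order were 0.18, 0.27, 0.24, 0.17, 0.52 and 0.23, and the first (limma adjusted p = 0.049) was lost when any 1 of the ASO1 libraries or of NCA replicates 2, 3 and 4 was left out, reaching 0.12 without ASO1 replicate 1, and with a lower filter or none. The ASO10 call in NGP was lost without ASO10 replicate 3 (0.13).

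RPL6, another large subunit protein, was at 3623, 3310, 3427 and 3319 with NCA, 4452, 3750, 3880 and 3758 with ASO1, and 4554, 3940, 3793 and 3891 with ASO2 in IMR32. Its values in SK-N-BE(2)c were 2859, 3165 and 3175 with NCA, 4131, 4379 and 4092 with ASO2, and 3616, 3699 and 3778 with ASO10. No ASO group overlapped NCA in these lines or in NGP. Its log2 fold changes were 0.21 and 0.24 in IMR32, 0.46 and 0.27 in SK-N-BE(2)c, and 0.18 and 0.17 in NGP, with limma adjusted p between 1.8e-08 and 0.014. Its NGP call with ASO2 was lost after rescaling to the same total.

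The size of the ASO2 effect differed between lines. Tested as an interaction in 1 limma model of NGP and SK-N-BE(2)c, the log2 fold change with ASO2 was more positive in SK-N-BE(2)c for 38 of 76 members and more negative for 0, against 10.5% and 9.37% of 12637 genes (19.9% in either direction). The median difference was 0.22. For ASO10 the interaction called 5 members higher (RPL8, RPL12, RPL13 and RPL29 among them) and 2 lower (RPL15 and RPS28), against 9.35% and 9.86% (19.2% in either direction), which is below those shares. Shares of all genes under the alternatives that follow are not given here, so their counts stand without a background. The ASO2 count was 22 after rescaling to the same total and 22 without NGP ASO2 replicate 2. The ASO10 count of 7 was 16 without NGP NCA replicate 3, and 3 or 4 when any of 7 other libraries was left out (NGP ASO10 replicates 1 and 3, NGP NCA replicates 1 and 2, SK-N-BE(2)c ASO10 replicates 2 and 3, SK-N-BE(2)c NCA replicate 3).

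ASO2 and ASO10 were also set against each other. In SK-N-BE(2)c, 49 members were higher with ASO2 and 2 lower, against 34.6% and 30.8% of all genes, with a median of 0.18. After rescaling to the same total the split was 26 higher and 10 lower with a median of 0.07, so this comparison depended on the scaling. The shares of all genes under that rescaling are not given here, so whether members still stood apart cannot be judged from these counts. The members' share of all values, which needs no size factor, was 4.37% and 4.31% in these groups, which overlapped. In NGP, 11 were higher and 16 lower, shares below the 30.6% and 28.0% of all genes, with a median of 0.01. That median lay just below 0 under other scalings, with edgeR and DESeq2, and without ASO2 replicate 3.

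**Figure D4:**
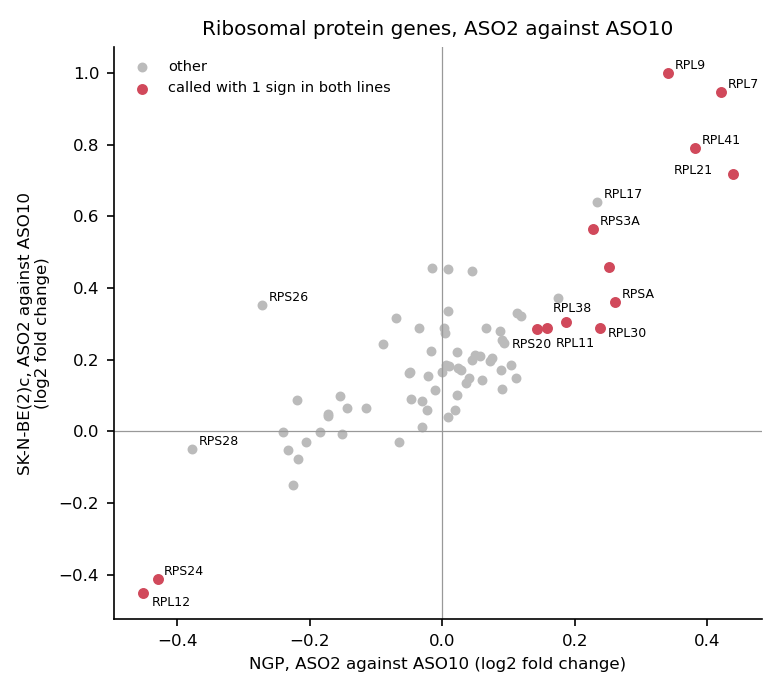
Log2 fold change of ASO2 against ASO10 in NGP (horizontal axis) and in SK-N-BE(2)c (vertical axis) for the 76 ribosomal protein genes tested in both lines; each point is a gene, red where called with the same sign in both lines. RPL9, RPL7, RPL41 and RPL21 lie at the upper right, and RPL12 and RPS24 at the lower left.

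Across the 76 members the difference between ASO2 and ASO10 in NGP followed that in SK-N-BE(2)c with Pearson's r of 0.83, close to the 0.86 over all 12637 genes. These lines share no libraries, and genes are not independent replicates, so this is a description. For ASO2 against NCA the same coefficient was 0.62 over members and 0.81 over all genes, and for ASO10 against NCA it was 0.57 and 0.83. Called with the same sign in both lines were 11 members higher with ASO2 (RPL7, RPL9, RPL11, RPL21, RPL30, RPL38, RPL41, RPS3A, RPS20 and RPSA among them) and 2 lower (RPL12 and RPS24), against 26.3% and 22.8% of genes. Both shares of members are below the background.

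RPL9, RPL12, RPS24 and RPS26 were called lower with an ASO in NGP or SK-N-BE(2)c, where most members rose. RPL9, a large subunit protein near the binding site of elongation factors, was at 396, 424 and 415 with NCA, 698, 635 and 637 with ASO2, and 323, 314 and 347 with ASO10 in SK-N-BE(2)c. The 3 groups did not overlap, with ASO2 highest and ASO10 lowest, a rise of 0.67 ± 0.08 (SE, n = 3; limma adjusted p = 3.4e-08) and a fall of -0.33 ± 0.08 (SE, n = 3; limma adjusted p = 0.0011). In NGP it was at 824, 821 and 862 with NCA, 784, 844 and 879 with ASO2, and 613, 655 and 711 with ASO10. There ASO2 overlapped NCA (-0.00) and ASO10 lay wholly below it (-0.34, limma adjusted p = 0.0003). The ASO2 effect on RPL9 was 0.67 larger in SK-N-BE(2)c than in NGP (limma adjusted p = 4.6e-05), and for ASO10 the lines differed by 0.01 ± 0.10 (SE). Its named pseudogenes summed to little of its level, as did those of RPL12, RPL41 and RPS24 described here.

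RPL12, at the base of the stalk of the large subunit, went the other way. It was at 4031, 4094 and 3757 with NCA, 3087, 3254 and 3130 with ASO2, and 4466, 4123 and 4369 with ASO10 in NGP. ASO2 lay wholly below and ASO10 wholly above NCA, at -0.33 ± 0.05 (SE, n = 3; limma adjusted p = 6.1e-06) and 0.13, the second of which (limma adjusted p = 0.041) was lost without ASO10 replicate 1 or 3 or NCA replicate 1 or 3 (0.09 without the last), and also after rescaling to the same total, with a filter at a mean of 1 and with no filter. Its SK-N-BE(2)c values were 4312, 4871 and 4786 with NCA, 4663, 4643 and 4449 with ASO2, and 5783, 6606 and 6449 with ASO10. Only ASO10 was apart from NCA there (0.43, limma adjusted p = 1.9e-07). ASO2 was below ASO10 by the same amount in both lines, -0.45 ± 0.05 (SE) in NGP and -0.45 ± 0.06 (SE) in SK-N-BE(2)c.

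RPS24, a small subunit protein also altered in Diamond-Blackfan anaemia, fell with ASO2 in both lines. Its values in NGP were 9655, 10602 and 10399 with NCA, 9088, 7669 and 8453 with ASO2, and 11264, 10794 and 11844 with ASO10. Those in SK-N-BE(2)c were 5863, 6229 and 7386 with NCA, 4572, 5006 and 5642 with ASO2, and 6206, 7366 and 6659 with ASO10. ASO2 lay below every NCA library in both lines, with log2 fold changes of -0.28 ± 0.05 (SE, n = 3; limma adjusted p = 8e-05) and -0.35 ± 0.07 (SE, n = 3; limma adjusted p = 0.00012). ASO10 was called higher in NGP (0.15, limma adjusted p = 0.027) and not in SK-N-BE(2)c (0.06), and the NGP call was lost without ASO10 replicate 1 or 3 or NCA replicate 1, and with no filter.

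RPS26, which lines the mRNA exit channel, differed by line. In NGP it was at 380, 366 and 423 with NCA and 362, 324 and 319 with ASO2, a fall of -0.22 ± 0.09 (SE, n = 3; limma adjusted p = 0.044) that was lost without ASO2 replicate 2 or 3 or NCA replicate 1 or 3, with DESeq2, and with a lower filter or none. In SK-N-BE(2)c it was at 223, 284 and 306 with NCA and 336, 363 and 384 with ASO2, a rise of 0.42 ± 0.11 (SE, n = 3; limma adjusted p = 0.001). The difference between the lines was 0.64 ± 0.14 (SE; limma adjusted p = 0.0024).

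**Figure D5:**
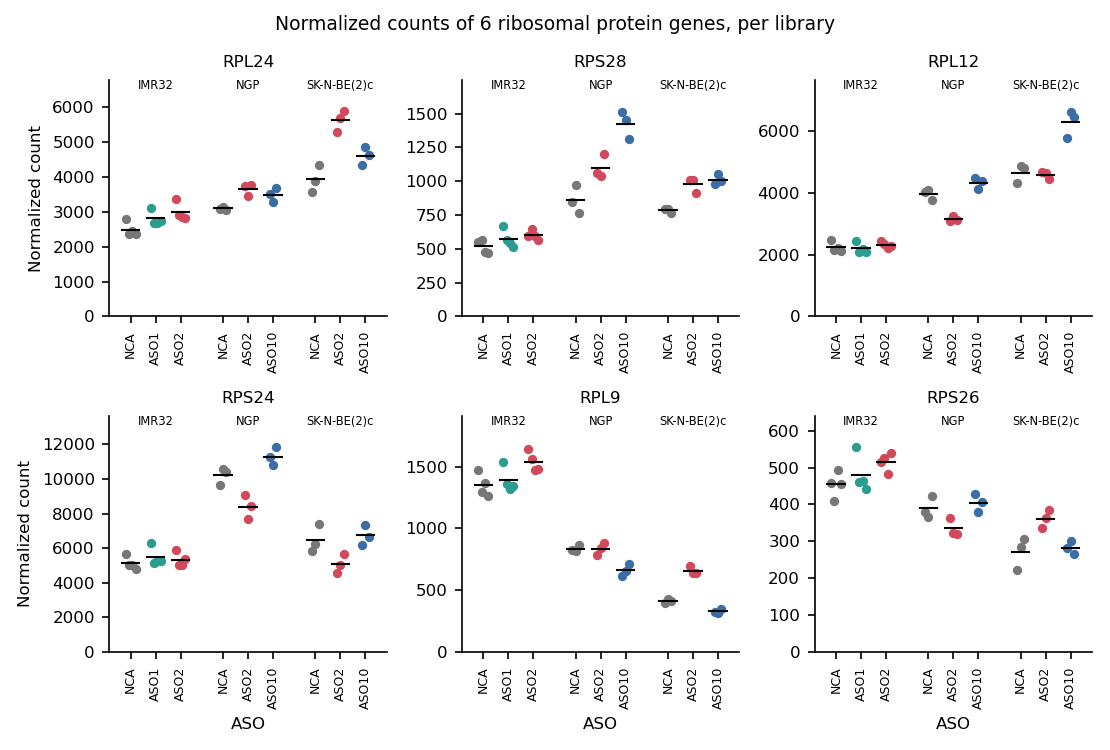
Normalized counts (vertical axes, each from 0) of RPL24, RPS28, RPL12, RPS24, RPL9 and RPS26 in all 30 libraries, by line and ASO; points are libraries and bars group means. RPL24 is higher with ASO2 than NCA in each line, RPL12 and RPS24 are lower with ASO2 than with ASO10 in SK-N-BE(2)c and NGP, and RPL9 is highest with ASO2 and lowest with ASO10 in SK-N-BE(2)c.

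The 8 members that bind MDM2 (RPL5, RPL11, RPL23, RPL26, RPS3, RPS7, RPS14 and RPS27A) were counted as a list. With ASO2, 4 were called higher in IMR32, 8 in SK-N-BE(2)c and 7 in NGP, against 17.6%, 33.6% and 30.6% of all genes. With ASO10 it was 7 in SK-N-BE(2)c as in NGP, against 27.8% and 26.8%. Most members were called higher in each of these contrasts, so the counts do not set this list apart from the other members. With ASO1, 0 were called higher and 1 lower, against 13.6% and 14.4%. RPL5 was not called in IMR32 (0.03 with ASO1 and 0.07 with ASO2), and changed by 0.45 and 0.16 in SK-N-BE(2)c and by 0.24 and 0.28 in NGP for ASO2 and ASO10. Its SK-N-BE(2)c call with ASO10 (limma adjusted p = 0.01) was lost without ASO10 replicate 3, and without NCA replicate 1 (0.10). RPL11 rose with ASO2 by 0.26 in IMR32, 0.50 in SK-N-BE(2)c and 0.25 in NGP, with limma adjusted p between 7.4e-09 and 0.002.

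The stalk proteins, which recruit translation factors to the ribosome, rose with ASO2 in most lines. RPLP0 changed by 0.26 in IMR32, 0.43 in SK-N-BE(2)c and 0.23 in NGP with ASO2, and RPLP1 by 0.21, 0.35 and 0.17, all called. RPLP2 was called with ASO2 in IMR32 (0.18) and SK-N-BE(2)c (0.30) and stood at -0.00 in NGP, and its IMR32 call was lost when any of 6 libraries was left out (ASO2 replicates 1, 2 and 4, NCA replicates 2, 3 and 4) or no filter was used. The IMR32 call of RPLP1 was lost without NCA replicate 4, and its NGP call after rescaling to the same total. RPSA, the precursor of the laminin receptor, rose with ASO2 by 0.25, 0.54 and 0.25, and with ASO10 by 0.18 in SK-N-BE(2)c against -0.01 in NGP, the former lost without ASO10 replicate 2 or NCA replicate 1. RPL22, whose paralog RPL22L1 can replace it, was called with ASO2 in all lines (0.18, 0.30 and 0.26), in IMR32 only with ASO2 replicates 1, 2 and 3 and NCA replicates 2 and 3 each kept. That call was also lost after rescaling to the same total, with a lower filter or none and with DESeq2. The RPL22 value with ASO10 in SK-N-BE(2)c was -0.03. RPS6 was called in SK-N-BE(2)c alone (0.39 with ASO2 and 0.28 with ASO10), and its ASO2 interaction was 0.32 (limma adjusted p = 0.0039).

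Of the 24 members with small nucleolar RNAs in their introns, ASO2 was accompanied by higher calls for 15 in IMR32, 23 in SK-N-BE(2)c and 15 in NGP, and by lower calls for 0, 0 and 1. The shares of all genes called higher were 17.6%, 33.6% and 30.6%. The members as a whole were called higher at shares close to those of this list, so the counts do not set it apart. Members with a TOP run were also counted beside those without one at a listed start, and the difference was not tested. With ASO2 in SK-N-BE(2)c, 41 of 46 with a TOP run were called higher and 1 lower (median 0.43), against 16 of 16 without (median 0.38). In IMR32 with ASO2 the counts were 34 of 46 and 8 of 16, and in NGP with ASO10 31 of 46 and 13 of 16. Among the sequences above, RPL24, RPL39 and RPS19 have TOP runs and rose, and RPL12 and RPS24 also have runs and did not rise with ASO2 in NGP or SK-N-BE(2)c. RPS28 has no run at its listed start, but a pyrimidine run led by a C begins at the next base. Its rise is uncertain because of its pseudogenes, so it cannot stand for genes without a TOP start.

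Genes close to the members were counted from lists chosen with earlier results of these data known. For all of these lists the share of all genes called higher and lower with ASO2 was 17.6% and 14.8% in IMR32, 33.6% and 33.4% in SK-N-BE(2)c, and 30.6% and 28.1% in NGP. With ASO10 it was 27.8% and 31.1% in SK-N-BE(2)c and 26.8% and 27.6% in NGP. Of 3 genes that encode ribosomal proteins under other names, 2 were called higher with ASO2 in IMR32, 3 in SK-N-BE(2)c and 1 in NGP. FAU rose by 0.42 with ASO2 in SK-N-BE(2)c and RACK1 by 0.32 with ASO10 (limma adjusted p = 1.6e-07 and 5.9e-07). Among 8 paralogs, RPS27L, a p53 target, rose by 0.58 with ASO2 in IMR32, 0.73 with ASO2 in NGP and 0.55 with ASO10 in NGP. RPL22L1 rose by 0.67 with ASO2 and 0.35 with ASO10 in SK-N-BE(2)c, where RPL39L fell by 0.33 with ASO10.

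Translation factors and other genes with TOP mRNAs moved both ways. Of the 18 tested, 10 were called higher and 1 lower with ASO2 in IMR32, 12 and 2 in SK-N-BE(2)c, and 11 and 3 in NGP, and with ASO10 it was 8 and 8 in SK-N-BE(2)c and 8 and 5 in NGP. EIF4A2, an RNA helicase of translation initiation, rose by 1.17 in SK-N-BE(2)c and 0.98 in NGP with ASO2, and EIF2S3, a subunit of the initiator tRNA carrier eIF2, fell by 0.92 and 0.84. EEF1D, of the elongation factor exchange complex, rose with ASO10 by 0.74 and 0.60 in those lines, and EIF3L fell by 0.61 and 0.59.

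Among 13 regulators of TOP mRNAs and mTORC1, RPTOR, the scaffold of mTORC1, fell with ASO2 by 0.34 in IMR32, 1.14 in SK-N-BE(2)c and 1.13 in NGP (limma adjusted p = 5e-05, 2.8e-11 and 1.4e-10). DEPTOR, an inhibitor of mTOR, fell with ASO10 by 0.58 in SK-N-BE(2)c and 0.64 in NGP. Of the list, 2 were called higher and 1 lower with ASO2 in IMR32, 5 and 8 in SK-N-BE(2)c, and 5 and 6 in NGP.

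Of 16 chaperones and importers of ribosomal proteins and subunits, 11 were called higher with ASO2 in IMR32, 13 in SK-N-BE(2)c and 12 in NGP, and lower 0, 1 and 0. AAMP reached 0.91 with ASO2 in SK-N-BE(2)c, and EIF6, which keeps large subunits from joining, 0.47 with ASO2 in IMR32. With ASO10, 6 were called higher and 1 lower in NGP, against 7 and 2 in SK-N-BE(2)c.

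Mitochondrial ribosomal proteins, encoded by a separate set of nuclear genes, showed smaller medians than the cytosolic members with ASO2, a difference that was not tested. These medians were 0.11 in IMR32, 0.17 in SK-N-BE(2)c and 0.01 in NGP, against 0.21, 0.42 and 0.19 for the members. Of 75 tested in NGP, 17 were called higher and 18 lower with ASO2 and 9 and 20 with ASO10, and of 75 in SK-N-BE(2)c, 37 and 15 with ASO2. In NGP each of these shares was below those of all genes, and in SK-N-BE(2)c the share called higher was above it. With ASO1 in IMR32 the mitochondrial median was 0.07 against 0.06 for the members, and 13 of 76 were called higher, against 13.6% of all genes. MRPS9 fell by 0.91 with ASO2 in NGP and MRPL13 by 0.96 and 0.95 with ASO10 in SK-N-BE(2)c and NGP. Annotated ribosomal protein pseudogenes took between 0.050% and 0.076% of all values, far below the members' share, and 11 were called higher and 10 lower of 58 tested with ASO2 in SK-N-BE(2)c.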

How the data were processed

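RNA-seq values of 30 libraries were used. Per the submitters' processing notes, FastQC 0.11.8, cutadapt 1.18, STAR 2.6.0, HTSeq 0.6.1, DESeq2 1.42.0 and hg19 (GRCh37) were used; the annotation, and whether counting used strand, are not given in the sources used here. Per the labels' protocols, libraries came from a stranded total RNA kit or a stranded mRNA kit, and which library had which is not stated. The deposited signal values are the authors' normalized counts. Low values gave 1 size factor per library, with which 100% of values were whole reads within 0.02. IMR32 had been scaled alone and the other lines together (median ratio 1.012 in each library). In IMR32, 174 entries without a gene ID (0.172% of values) were left out. Of 169 spike-in sequences 1 had a value above 0, so levels are relative. No per-sample column was left unused (0).

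Per line, log2(value + 1) of genes with a mean of at least 10 was fitted with limma 3.58.1 (R 4.3.3, variance trend), and p-values were adjusted over all genes. This was tested on simulated data. Alternatives used edgeR 4.0.16 and DESeq2 1.42.0 on recovered reads, other scalings, filters and pseudocounts, a replicate block, and each library left out. Leaving out replicate 1 of all IMR32 groups was chosen after seeing the data. Members and lists were chosen with earlier results of these data known. Named members were the 3 largest called rises and falls of each contrast against NCA, those called with one sign in all 6, the extremes between ASOs, the highest and lowest levels, and a set list (RPL5, RPL11, RPL22, RPLP0, RPLP1, RPLP2, RPSA, RPS6, RPS19 and RPL41); of each other list, the largest called rise and fall. Other members, such as RPL7, RPS23 and RPS25, were named after their values were seen. Some members and related genes are counted in the totals but not reported by name here.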

Additional observations from a re-analysis of the deposited data

Results flagged for a closer look

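In IMR32, 9 of 90 groups of 4 libraries (the named members in each ASO group) held a library whose gap to the next was large for the group's range by Dixon's test, and chance flags about 1 in 20 groups. In ASO1 this was replicate 1 for RPL24 (3123 normalized counts), RPL35A (1792), RPS24 (6273), RPS27 (3047), RPS9 (1568) and RPSA (2907). In ASO2 it was replicate 1 for RPL24 (3380) and RPL5 (15076), and replicate 3 for RPS19 (4065). Groups of 3 were not tested in this way.

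The effect of ASO2 differed between SK-N-BE(2)c and NGP for 38 members by limma's interaction term, and that of ASO10 for 7. For ASO2 the difference (SK-N-BE(2)c minus NGP, log2) was over 0.4 for RPL17 (0.75), RPS27 (0.73), RPL9 (0.67), RPS26 (0.64), RPS3A (0.56) and RPL21 (0.45). It was 0.39 for RPS9, 0.34 for RPS7, 0.32 for RPS6, 0.31 for RPL12, 0.30 for RPLP2 and 0.29 for RPSA. It was 0.28 for RPL24, 0.27 for RPL6, 0.27 for RPS12, 0.25 for RPL11, 0.21 for RPL5 and 0.21 for RPLP0. For ASO10 the difference was 0.31 for RPL12 and -0.37 for RPS28. The differences of RPL5, RPL21, RPLP0, RPS7 and RPS12 with ASO2 lost their call when any of 7 or 8 single libraries was left out. Those of RPL11 and RPLP2 lost it for 4 single libraries, those of RPL24 and RPSA for 3, and that of RPS27 for 1, as did the ASO10 difference of RPS28 for 1. Rescaling to the same total ended the ASO2 call of RPL5, RPL11, RPL21, RPL24, RPLP0, RPLP2, RPS7, RPS12 and RPSA, and TMM that of RPL5, RPLP0 and RPS12.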

How the results depend on the processing

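Among 2908 alternative values of the named calls, 2678 kept their direction and call, 230 lost the call and 0 changed sign. Only calls made in the main fit were followed, so calls gained under an alternative are not in this tally. Rescaling to the same total gave 14 higher and 2 lower calls for ASO1 against NCA in IMR32, 1 higher for ASO1 against ASO2, and a median of 0.12 for ASO2 in NGP. For ASO2 in SK-N-BE(2)c it gave 3 lower and a median of 0.29, and against ASO10 26 higher, 10 lower and a median of 0.072. It left 22 members in the ASO2 interaction. The NGP median of ASO2 against ASO10 turned to -0.050 with that rescaling, -0.016 with TMM, -0.015 with edgeR and -0.014 with DESeq2. TMM, edgeR and DESeq2 each called 4 members lower for ASO2 against ASO10 in SK-N-BE(2)c, TMM called 14 in the ASO10 interaction, and no filter gave 3 higher for ASO1 in IMR32. Shares of all genes under these alternatives are not given here for NGP and SK-N-BE(2)c, so those counts stand without a background. The cause of these changes was not tested.

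With a replicate block, ASO1 in IMR32 had 26 higher and 3 lower calls against NCA (18.8% and 19.4% of all genes). Against ASO2 it had 1 higher and 55 lower (13.9% and 18.9%). The block ended none of the 184 named calls it was run on, a tally that leaves out the calls it added. Same-numbered libraries correlated at -0.01 to 0.33 in IMR32 and -0.06 to 0.12 elsewhere. In IMR32 the coefficient was highest for replicate 1 in each pair of groups (0.33, 0.32 and 0.26). The main fit left the replicate number out, and the labels do not say what a shared number means. The reading of ASO1 in IMR32 depends on that choice. ASO1 libraries in IMR32 correlated best with their own number among NCA in 3 of 4.

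Leaving out single libraries (or replicate 1 of all IMR32 groups) gave these ranges. Shares of all genes with a single library left out are not given here, so these counts stand without a background. ASO1 against NCA in IMR32 had 2 to 16 higher and 0 to 4 lower calls, a median of 0.00 to 0.11 and a share difference of 0.03 to 0.15 percentage points. ASO2 had 39 to 65 higher, 0.19 to 0.25 and 0.23 to 0.33. ASO1 against ASO2 had 13 to 57 lower, -0.21 to -0.13 and -0.24 to -0.13. NGP ASO2 had 41 to 52 higher and 2 to 3 lower, 0.16 to 0.24 and 0.11 to 0.28, and ASO10 41 to 59 and 1 to 2, 0.14 to 0.20 and 0.31 to 0.49. NGP ASO2 against ASO10 had 8 to 15 higher, 12 to 15 lower, a median of -0.010 (without ASO2 replicate 3) to 0.053 and a share of -0.27 to -0.13. SK-N-BE(2)c ASO2 had 70 to 71 higher and 1 to 2 lower, 0.38 to 0.45 and 0.58 to 0.72, and ASO10 46 to 62 and 1 to 2, 0.19 to 0.27 and 0.51 to 0.71. ASO2 against ASO10 there had 38 to 52 higher, 2 to 3 lower, 0.14 to 0.21 and -0.049 to 0.15, the share turning negative without ASO10 replicate 1. The interactions called 22 to 47 members for ASO2 and 3 to 16 for ASO10. The count of lower calls was 2 in NGP with ASO10 without NCA replicate 3, and in SK-N-BE(2)c 2 with ASO2 without NCA replicate 1 and 2 with ASO10 without NCA replicate 2. With 3 or 4 libraries a group, few-percent differences of single members were near the limit of these data.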
